A study of Mus musculus with 4 samples.

Results

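The genes described here encode the transforming growth factor beta (TGF-beta) ligands, their receptors and the latent binding proteins that hold the ligands in the matrix, together with Tgfbi, a matrix protein gene named for its induction by TGF-beta. They were chosen by name, 10 genes in all, of 18820 genes compared: the ligands Tgfb1, Tgfb2 and Tgfb3, the receptors Tgfbr1, Tgfbr2 and Tgfbr3, the latent binding proteins Ltbp1, Ltbp2 and Ltbp3, and Tgfbi. A gene was read from probe sets annotated to it alone, which gave 9 measured genes with 1 probe set each. Tgfbr2 has no value here, because the 1 probe set annotated to it also carries the symbol of another gene. No filter on low values was applied.

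Total RNA came from cultured mouse embryonic stem cells, which renew themselves and can form the tissues of the embryo, and each sample was read on its own Affymetrix Mouse Gene ST array. The KAP_WT group holds 2 arrays of wild-type cells, and the KAP_KO group holds 2 arrays of KAP1 fl/fl knockout cells, in which the gene of the co-repressor Trim28, also called KAP1, was deleted. All 4 samples are labelled with 4-OH-tamoxifen, which starts the deletion, while the protocol gives 24 h with tamoxifen or ethanol and then 48 h without it. The labels name no strain, no Cre driver and no line or clone. The labels do not settle whether both groups came from 1 line, so a difference between lines and the loss of Trim28 cannot be told apart. Irradiated embryonic fibroblasts fed the cultures, and the labels mention no step that removed these feeder cells. Replicates are labelled as biological, and 2 arrays a group set the limit of precision.

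TGF-beta ligands are made as precursors that the protease furin cuts, and the cut propeptide stays wrapped around the ligand as a latent complex. Latent binding proteins tie this complex to the extracellular matrix, and integrins, proteases or thrombospondin free the ligand. The free ligand is bound by the type II receptor, which recruits and phosphorylates the type I receptor, and this kinase then phosphorylates Smad2 and Smad3, which enter the nucleus with Smad4. In many epithelial cells the pathway is known for growth arrest and for a mesenchymal programme of matrix and contractile genes.

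The label of the samples was first set against Trim28 and against marker genes. Trim28 read 11.29 and 11.37 on the KAP_WT arrays and 8.97 and 8.92 on the KAP_KO arrays (log2 array values). The stem cell markers stood high in both groups: of 10 measured, 7 were lower in KAP_KO and 0 higher, and Pou5f1 still read 10.86 and 10.78 there. Of 20 fibroblast markers 14 were higher and 0 lower in KAP_KO, and their summed level on the log2 scale was 9.30 and 9.09 in KAP_WT and 10.23 and 10.19 in KAP_KO. Among these, Dcn rose by 2.64, Pdgfrb by 1.58 and Postn by 1.29. Lum (at most 3.24 on any array), Fap (at most 2.79), Thy1, Col6a2, Meox2 and Tcf21 did not pass. Thy1 read 5.67 and 5.45 in KAP_WT and 5.93 and 5.70 in KAP_KO. Col6a2 read 5.20 and 5.37 in KAP_WT and 5.43 and 5.27 in KAP_KO. No array value is a true 0. Of 8 trophoblast markers 4 were higher and 1 lower, with summed levels of 9.86 and 9.95 in KAP_WT and 12.14 and 12.38 in KAP_KO. The keratin genes Krt8 (11.19 and 11.52) and Krt18 (10.72 and 10.92) made up most of that KAP_KO sum. Cdx2 rose by 1.03 and Hand1 by 0.98, Tfap2c fell by 0.81, and Gata3, Elf5 and Eomes did not pass. Of 8 primitive endoderm markers 6 were higher and 0 lower (summed levels 8.92 and 8.95, then 9.85 and 10.11). These counts use the test described below, by which 14.2% of all genes were higher in KAP_KO and 12.7% lower. Pdgfra is on both the fibroblast and the primitive endoderm list. These marker lists moved with the groups, and their part in the results that follow was not tested. The 2 KAP_WT arrays stood apart from each other in some contractile and matrix genes. On replicates 1 and 2, Acta2 read 6.78 and 4.64, Thbs1 7.50 and 5.17 and Bgn 6.71 and 5.14. Other such genes lay close together on these arrays, with Tpm1 at 7.84 and 7.80, Col1a2 at 5.11 and 5.03 and Col5a1 at 5.08 and 5.12. In bulk RNA, fewer cells of a type and less RNA per cell cannot be told apart.

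The ligands, the type I receptor and 1 latent binding protein were higher in the Trim28 knockout, while Tgfbi was lower. Of the 9 measured genes 5 rose (Tgfb1, Tgfb2, Tgfb3, Tgfbr1 and Ltbp1) and 1 fell, and Tgfbr3, Ltbp2 and Ltbp3 did not pass the test. The test was limma's moderated test over all 18820 genes, with p-values adjusted by Benjamini-Hochberg and called under 0.05. Of all genes 26.9% passed it: 14.2% were higher in KAP_KO and 12.7% lower. The median change of the 9 genes was 0.71 on the log2 scale, against -0.05 over all genes. In 7 of the 9 the groups did not overlap, which was so for 65.2% of all genes. The arrays' medians over the compared genes differ by group, at 5.46 and 5.48 in KAP_WT and 5.66 and 5.63 in KAP_KO. Over all probe sets the medians were nearly equal, at 4.76 and 4.75 in KAP_WT and 4.76 and 4.77 in KAP_KO. Subtracting the medians of the compared genes moves every change by -0.17. The 6 called genes kept their direction and passed the threshold under that scaling too.

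**Figure D1:**
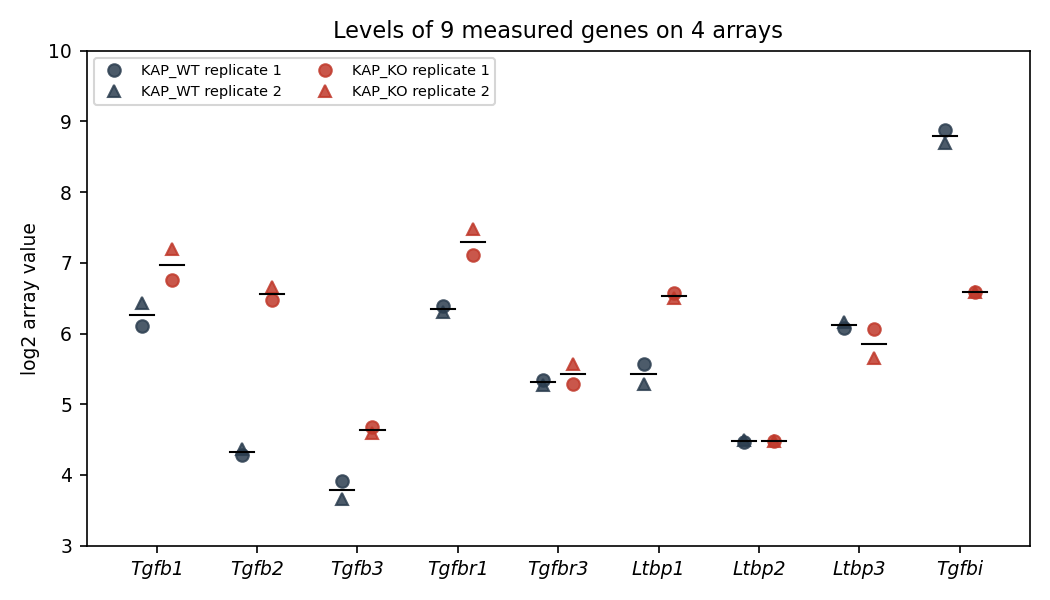
Log2 array values of the 9 measured genes (vertical axis) on each of the 4 arrays, with the mean of each group of 2 as a line. Tgfb2 lies at 4.28 and 4.37 on the KAP_WT arrays and at 6.47 and 6.65 on the KAP_KO arrays, and Tgfbi lies lower on both KAP_KO arrays; levels of different genes come from different probes and are not comparable.

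Among the ligands, Tgfb2, the isoform best known from heart, eye and craniofacial development, had the largest rise. Tgfb2 read 4.28 and 4.37 on the KAP_WT arrays and 6.47 and 6.65 on the KAP_KO arrays. Both knockout arrays were thus well above both wild-type arrays, and replicates of a group lay close together. The mean went from 4.32 ± 0.06 to 6.56 ± 0.13 (SD, n = 2 each), a log2 change of 2.24 (SE 0.10, limma adjusted p = 5.85e-05). On these array values this is a 4.72-fold higher level with a 95% confidence interval of 3.97 to 5.60. The KAP_WT values are low ones, and signal over background is not known for them. The change was larger in size than that of 99.3% of all genes.

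Tgfb3, an isoform known for its part in palate fusion, read 3.91 and 3.66 on the KAP_WT arrays and 4.67 and 4.59 on the KAP_KO arrays. These are low values too, and the groups did not overlap. Tgfb3 rose by 0.84 (SE 0.11, limma adjusted p = 0.00227), to a 1.79-fold higher level (95% confidence interval 1.49 to 2.16).

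Tgfb1, the isoform known for immune regulation and fibrosis, read 6.10 and 6.44 in KAP_WT and 6.76 and 7.19 in KAP_KO. The groups did not overlap, but the gap between them was about the size of the gap within each. Tgfb1 rose by 0.71 (SE 0.17, limma adjusted p = 0.0240), to a 1.63-fold higher level with a 95% confidence interval of 1.23 to 2.17. Its call was lost without KAP_WT replicate 1 (log2 change 0.54, adjusted p = 0.167), without KAP_WT replicate 2 (0.88, adjusted p = 0.0650) and without KAP_KO replicate 2 (0.50, adjusted p = 0.0735). Of the 3 ligands Tgfb1 is therefore the one whose call was lost with single arrays left out. Its change stayed positive with each array left out in turn (0.50 to 0.92). The interval of the log2 change of Tgfb2 (1.99 to 2.48) did not overlap those of Tgfb1 (0.30 to 1.12) and Tgfb3 (0.57 to 1.11); the difference between the ligands was not tested.

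**Figure D2:**
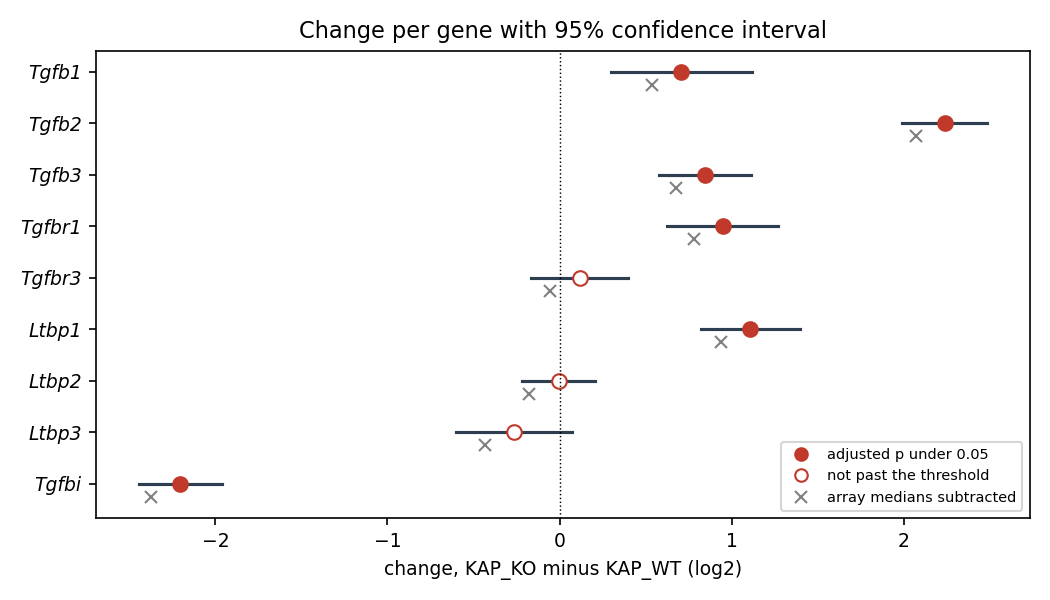
Log2 change in KAP_KO against KAP_WT for each measured gene (horizontal axis), with its 95% confidence interval as a bar; filled points passed an adjusted p of 0.05, open points did not, and crosses give the change with array medians subtracted. The interval of Tgfb2, from 1.99 to 2.48, lies above those of the other ligands, and that of Tgfbi lies from -2.45 to -1.96.

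The starts of Tgfb1 and Tgfb2 are shown because these ligands have unlike promoter sequences. Whether the sequences bear on the changes was not tested. Windows of 250 bases before the RefSeq start on GRCm38.p6 were searched on both strands for the GC box GGGCGG, the core Smad-binding letters CAGAC, the TATA letters TATAAA, the AP-1 letters TGANTCA, the CRE letters TGACGTCA and the CArG box. Of the 10 genes 8 had an entry, and Tgfb3 and Tgfbr3 had none. Each sequence runs 5′ to 3′ on the gene's strand up to the base before the start, and capitals mark every match to one of these motifs.
Tgfb1, chr7:25686752-25687001, plus strand: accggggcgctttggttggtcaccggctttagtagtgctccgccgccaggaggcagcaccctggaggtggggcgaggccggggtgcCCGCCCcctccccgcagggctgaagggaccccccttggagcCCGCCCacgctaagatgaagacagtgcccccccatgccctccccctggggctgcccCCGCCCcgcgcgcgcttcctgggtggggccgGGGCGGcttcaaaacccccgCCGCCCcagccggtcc
Tgfb2, chr1:186705990-186706239, minus strand: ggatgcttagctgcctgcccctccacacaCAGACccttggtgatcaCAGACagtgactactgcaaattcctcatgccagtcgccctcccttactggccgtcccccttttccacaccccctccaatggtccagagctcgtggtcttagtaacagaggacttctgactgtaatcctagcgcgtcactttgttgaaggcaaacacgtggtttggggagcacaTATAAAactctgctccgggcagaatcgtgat

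The Tgfb1 window held 5 GC boxes and no other match, and 21 CG dinucleotides. The Tgfb2 window held 8 CG dinucleotides, a TATA match that starts 31 bases before the start, and 2 CAGAC matches. Its start lies inside the annotated span of Tgfb2, downstream of the outermost start. Over all 32851 such windows, 32.7% held a GC box, 42.2% CAGAC and 12.4% TATAAA, with a median of 6 CG dinucleotides. No match overlapped another in either window. These matches are letters in a window and were not tested as binding sites.

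Of the receptors, the type I receptor gene rose. Tgfbr1, which encodes the kinase that phosphorylates Smad2 and Smad3, read 6.40 and 6.31 on the KAP_WT arrays and 7.12 and 7.48 on the KAP_KO arrays. Both knockout values stood above both wild-type values, and the knockout arrays differed from each other more than the wild-type arrays did. Tgfbr1 rose by 0.95 (SE 0.14, limma adjusted p = 0.00296), to a 1.93-fold higher level with a 95% confidence interval of 1.54 to 2.41. The call held with each array left out in turn, though the adjusted p reached 0.0497 without KAP_WT replicate 2. Its RefSeq promoter entries give 2 starts; the windows before them hold 29 and 3 CG dinucleotides, the first with 2 GC boxes.

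Tgfbr3 encodes betaglycan, a co-receptor without a kinase that presents TGF-beta2 to the type II receptor. It read 5.35 and 5.27 in KAP_WT and 5.29 and 5.56 in KAP_KO, so the groups overlapped. The log2 change was 0.12 (SE 0.12, limma adjusted p = 0.528), and its 95% confidence interval ran from -0.16 to 0.39, which leaves out a change as large as that of Tgfbr1. The sign of this small change turned with array medians subtracted (-0.05).

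The latent binding proteins differed from each other in what the arrays read. Ltbp1, which anchors latent TGF-beta to fibrillin and fibronectin fibres, read 5.57 and 5.28 on the KAP_WT arrays and 6.57 and 6.50 on the KAP_KO arrays. Its groups were clearly apart, with the knockout replicates almost equal. The log2 change was 1.11 (SE 0.12, limma adjusted p = 9.89e-04), a 2.16-fold higher level with a 95% confidence interval of 1.77 to 2.63. With each array left out in turn the change ranged from 0.96 to 1.25 and stayed past the threshold. Of its 2 RefSeq starts, the window before the first held the CRE letters TGACGTCA, as 1.55% of all windows do.

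Ltbp2, a family member known for its role in the eye's fibrillin microfibrils that does not bind latent TGF-beta, read 4.47 and 4.50 in KAP_WT and 4.48 and 4.48 in KAP_KO. All 4 values were nearly equal. The log2 change was -0.01 (SE 0.09, limma adjusted p = 0.970), with a 95% confidence interval of -0.22 to 0.20. Ltbp3, which binds latent TGF-beta and is known from bone and tooth development, read 6.09 and 6.16 in KAP_WT and 6.06 and 5.66 in KAP_KO. The knockout values lay below the wild-type values, 1 of them only slightly. The log2 change was -0.26 (SE 0.14, limma adjusted p = 0.228; 95% confidence interval -0.60 to 0.07). It passed the threshold without KAP_KO replicate 1 (-0.46, adjusted p = 0.0331) and with array medians subtracted (-0.43, adjusted p = 0.0350), so no call either way is firm for Ltbp3. The interval of Ltbp1 overlapped neither that of Ltbp2 nor that of Ltbp3; these differences were not tested.

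Tgfbi was the 1 measured gene of the 9 that fell. It encodes a secreted matrix protein, also called beta-ig-h3, that binds integrins and collagens. Tgfbi read 8.88 and 8.70 on the KAP_WT arrays and 6.58 and 6.59 on the KAP_KO arrays. The knockout replicates were almost equal and lay far below both wild-type arrays. The mean went from 8.79 ± 0.13 to 6.58 ± 0.0021 (SD, n = 2 each), and the log2 level fell by 2.20 (SE 0.10, limma adjusted p = 5.75e-05). This is a 4.61-fold lower level with a 95% confidence interval of 3.90 to 5.45. The fall was larger in size than the change of 99.2% of all genes, and it ranged from -2.30 to -2.11 with each array left out in turn. Its promoter is shown because the gene moved against the ligands.
Tgfbi, chr13:56609336-56609585, plus strand: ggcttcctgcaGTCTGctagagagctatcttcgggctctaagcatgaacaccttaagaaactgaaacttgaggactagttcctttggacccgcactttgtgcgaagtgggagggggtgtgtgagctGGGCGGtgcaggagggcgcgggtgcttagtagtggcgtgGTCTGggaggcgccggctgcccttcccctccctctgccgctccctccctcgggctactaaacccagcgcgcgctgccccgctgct

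The Tgfbi window held 2 matches to the Smad-binding letters, 1 GC box and 15 CG dinucleotides, and no TATA match. The Tgfb2 window holds 2 CAGAC matches as well, and 42.2% of all windows hold these letters. Whether the matches bear on either change was not tested.

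**Figure D3:**
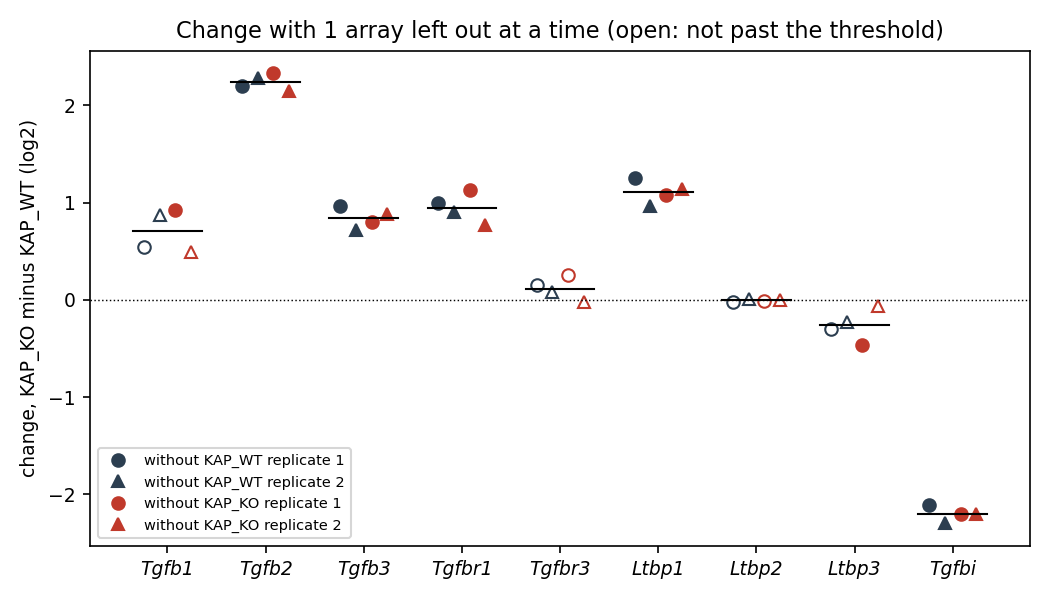
Log2 change of each measured gene (vertical axis) with 1 of the 4 arrays left out at a time; the line gives the change over all arrays, and open points did not pass an adjusted p of 0.05. Tgfb1 passed in 1 of the 4 fits, Ltbp3 in 1, and Tgfb2, Tgfb3, Tgfbr1, Ltbp1 and Tgfbi in all 4.

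Neighbouring genes were set beside the genes that moved, with 10 compared genes on each side. Around Tgfb2 on chromosome 1 the neighbours had a median change of -0.22, with 1 of 20 higher and 7 lower in KAP_KO, where 14.2% of all genes were higher and 12.7% lower; the other 12 did not pass. Around Tgfbi on chromosome 13 the median was -0.09, with 1 of 20 higher and 2 lower. Around the other 7 genes the median change lay between -0.15 and 0.02.

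The genes whose 4 values, centred on their own mean, lay nearest to those of Tgfb2 were Lix1, Tdpoz8, Gabra3, Tc2n and the peptide transporter gene Tap1, at Euclidean distances of 0.07 to 0.14 on the log2 scale over 4 samples. Lix1 read 4.20 and 4.20 in KAP_WT and 6.31 and 6.53 in KAP_KO. Nearest to Tgfbi were Laptm5, a lysosomal membrane protein gene, Casq1, the naive-state factor gene Tbx3, Arl14epl and Trim28 itself, at distances of 0.05 to 0.26. With 2 groups of 2 samples, nearness here means little more than a change of the same size.

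The rest of the pathway was followed in 4 lists: the latent complex and its activation, co-receptors and intracellular transducers, inhibitors and feedback genes, and target genes. Of 18 measured genes of the latent complex and its activation 12 rose and 1 fell, with a median change of 0.99. Of 23 target genes 16 rose and 3 fell (median 1.21). Of 14 co-receptors and transducers 3 rose and 0 fell (median 0.15), and of 17 inhibitors 5 rose and 4 fell (median 0.06). Over all genes 14.2% rose, 12.7% fell and the median was -0.05. With array medians subtracted the counts of higher and lower genes were 12 and 1, 16 and 5, 3 and 2, and 3 and 4 in the same order of lists; under that scaling 11.0% of all genes were higher and 34.0% lower. The fibroblast markers described above moved in the same direction; Dcn, Col1a1 and Col1a2 belong to them and to these lists.

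**Figure D4:**
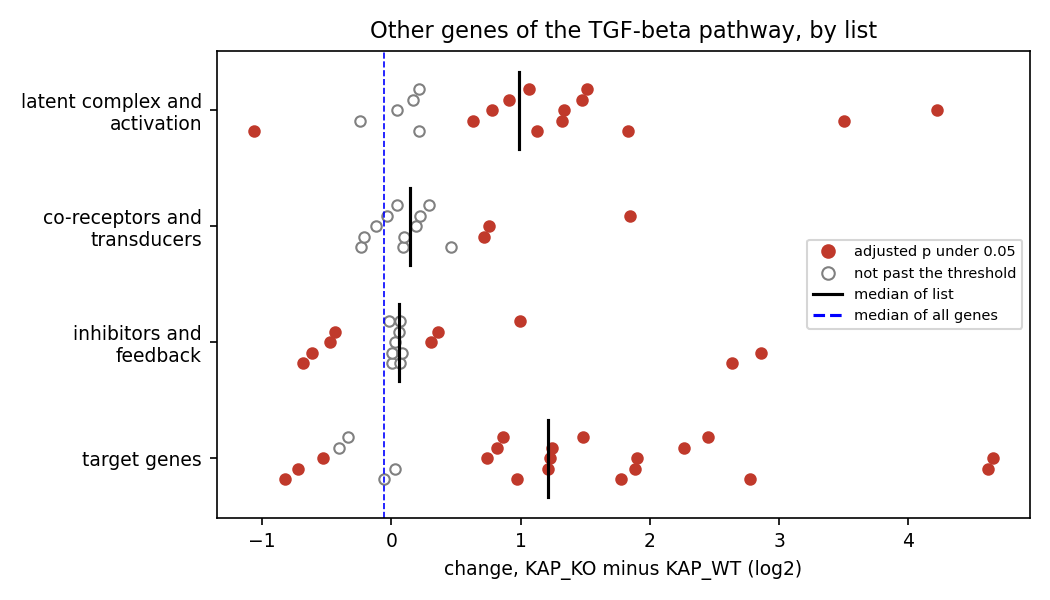
Log2 change in KAP_KO against KAP_WT (horizontal axis) of each measured gene of 4 pathway lists; filled points passed an adjusted p of 0.05, the vertical bar is the median of a list and the dashed line the median of all genes, -0.05. The genes of activation and the target genes lie mostly to the right, with medians of 0.99 and 1.21, and the other lists centre near 0.15 and 0.06.

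Among the genes that process and free the ligand, the thrombospondin gene Thbs1 rose most, whose product can activate latent TGF-beta. It read 7.50 and 5.17 in KAP_WT and 10.37 and 10.74 in KAP_KO, a log2 change of 4.22 (limma adjusted p = 0.00408). The KAP_WT arrays disagreed, and the change was 3.06 without KAP_WT replicate 2 and 5.38 without KAP_WT replicate 1. Bmp1, a protease gene whose product cuts procollagens and Ltbp1, read 5.81 and 5.66 in KAP_WT and 8.99 and 9.48 in KAP_KO (log2 change 3.50, limma adjusted p = 6.03e-05). For Bmp1 the KAP_WT arrays lay close together, unlike for Thbs1. The membrane protease gene Mmp14 rose by 1.83 and Itgb8, the integrin chain that pairs with the alpha-v chain to free latent TGF-beta, by 1.51. The gene of that alpha-v chain, Itgav, rose by 1.32 and Furin, the precursor convertase gene, by 1.07. Of this list, Itgb6 (at most 3.16 on any array), Itgb3, Plg, Emilin1 and Nrros did not pass.

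The 1 gene of this list that fell was Ltbp4, the remaining latent binding protein gene. Ltbp4 read 8.67 and 8.61 in KAP_WT and 7.78 and 7.37 in KAP_KO, a log2 change of -1.06 (SE 0.14, limma adjusted p = 0.00231). The groups did not overlap, and the call held with each array left out in turn. Of the 4 latent binding protein genes, then, Ltbp1 rose, Ltbp4 fell and Ltbp2 and Ltbp3 did not pass.

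Of the receptor-associated and intracellular genes, Cd109, a co-receptor that restrains TGF-beta signalling, rose from 3.86 and 3.87 to 5.74 and 5.70 (log2 change 1.85, limma adjusted p = 6.53e-05). Smad3 rose by 0.76 (limma adjusted p = 0.00531) and Sptbn1, a spectrin gene whose product binds Smad proteins, by 0.72. Smad2 and Smad4 had changes of -0.12 and 0.09 and did not pass the test. Of these 3 Smad genes, whose products carry the signal to the nucleus, Smad3 was the 1 called.

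Inhibitor genes moved both ways. The 3 largest rises were Bgn (2.86), Dcn (2.64), both small matrix proteoglycans that bind TGF-beta, and Bambi (1.00), a pseudoreceptor at the membrane; Smurf1 and Smurf2, ubiquitin ligases, rose by 0.31 and 0.36. The calls of Smurf1 and Smurf2 were lost with any 1 array left out (adjusted p of up to 0.141 and 0.180) and with array medians subtracted (0.239 and 0.164). Smurf1 also lost its call with the replicate block (0.0564) and a prior with an intensity trend (0.0518), and Smurf2 with the mean of its probe sets (0.104). Bgn read 6.71 and 5.14 in KAP_WT and 9.01 and 8.57 in KAP_KO, and its change was 2.08 without KAP_WT replicate 2 and 3.64 without KAP_WT replicate 1. The 4 that fell were Pmepa1 (-0.68), Smad7 (-0.62), Tgif1 (-0.48), a nuclear co-repressor gene, and Nedd4l (-0.44), a ubiquitin ligase gene. Smad7 and Pmepa1 are feedback inhibitors that TGF-beta itself is known to induce. Smad7 read 9.79 and 9.57 in KAP_WT and 9.23 and 8.89 in KAP_KO. The groups did not overlap for these 4 genes, but their calls depended on single arrays: Pmepa1 lost its call without KAP_WT replicate 2 (adjusted p = 0.0507), Tgif1 without either KAP_WT array (0.0669 without replicate 1 and 0.0659 without replicate 2), and Smad7 and Nedd4l in 3 of the 4 fits with 1 array left out, with an adjusted p of up to 0.138 and 0.168. In counts, 3 inhibitors rose with any 1 array left out, and 1, 0 and 2 fell without KAP_WT replicate 1, KAP_WT replicate 2 and KAP_KO replicate 2.

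Among the target genes, Acta2 (smooth muscle actin) rose by 4.65, Tagln (transgelin) by 4.61, the matrix gene Tnc by 2.77 and the stress-response factor gene Atf3 by 2.45. Acta2, Tagln and Tnc are also expressed by fibroblasts and contractile cells under other signals. Without KAP_WT replicate 2 the change of Acta2 was 3.58 and without KAP_WT replicate 1 it was 5.73. The 3 target genes that fell were Angptl4 (-0.82), Klf10 (-0.72) and Tsc22d1 (-0.53), of which Klf10, also called TGF-beta inducible early gene, read 9.39 and 9.30 in KAP_WT and 8.80 and 8.45 in KAP_KO. Klf10 lost its call without KAP_WT replicate 1 (adjusted p = 0.0813) and without KAP_WT replicate 2 (0.0648), and Tsc22d1 without KAP_WT replicate 1 (0.0550). With the replicate block 5 target genes were lower. Without the block, 16 of 23 measured target genes rose and 3 fell, where 14.2% of all genes were higher and 12.7% lower. Tgfbi, which is not on this list, fell.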

How the data were processed

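The authors deposited 1 log2 value per probe set and array, made with RMA and affy (versions unstated), as the submitters' processing notes record; RMA compresses small differences among dim probe sets. The values were used as deposited. Of 35556 probe sets, the platform annotation lists 21218 with 1 gene symbol, 1881 with several and the other 12457 not at all. The probe set with the highest mean was kept per gene, which left 18820 genes.

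KAP_KO was compared with KAP_WT with R 4.3.3 and limma 3.58.1 (functions lmFit and eBayes, 2 residual and 4.70 prior degrees of freedom, two-sided, Benjamini-Hochberg over all genes, threshold 0.05). The fit was tested on simulated data. Named were Trim28, the 10 genes, up to 4 called genes per pathway list with the largest change, and the 5 nearest patterns for each of the 2 genes with the largest change; marker genes and other genes were named after their values were seen. The genes and lists were chosen with earlier results of these data known. The p-values set a change against the spread of these arrays, not of lines or clones. The alternatives were the replicate block, 2 other priors, 2 filters on dim genes, 2 scalings, 2 ways of using a gene's probe sets, leaving out single arrays, a looser adjusted p of 0.1 and a fold limit of 1.5. Promoter sequences and neighbours came from RefSeq (GRCm38.p6); which build the array annotation used is not given.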

Additional observations from a re-analysis of the deposited data

How the results depend on the processing

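Over 15 alternatives, Tgfb2, Tgfb3, Tgfbr1, Ltbp1 and Tgfbi kept their direction and stayed past the threshold wherever they were tested. The count of higher genes among the 9 was 4 to 5 with each array left out in turn, and the count of lower ones 1 to 2. It was 3 higher when genes below the median level were left out, since only 5 of the 9 were then tested, and 2 lower with array medians subtracted. The count of all genes past the threshold was 8457 with array medians subtracted, of which 24.4% were higher against 52.8% as deposited, 2712 with a fold limit of 1.5, and between 2430 (without KAP_WT replicate 2) and 4350 (without KAP_KO replicate 1) with 1 array left out. The sign turned for Ltbp2 after quantile normalization (0.00050) and without KAP_WT replicate 2 (range with 1 array left out -0.021 to 0.0081), and for Tgfbr3 with array medians subtracted (-0.054) and without KAP_KO replicate 2 (range -0.022 to 0.25), none of them past the threshold. Same-numbered arrays share only a number in the labels, and their deviations from the group means correlated at 0.133; with the replicate block, 5 of the 9 genes were higher and 1 lower, as without it, and 5093 of all genes passed; the target genes lower were then 5, against 3, and Smurf1 lost its call. In a fit with 1 array left out, the lone array of a group is assumed to vary like the other group. Signal over background is unknown, which limits the low readings of Tgfb3, Ltbp2 and, in KAP_WT, Tgfb2.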
